A study of Mus musculus with 24 samples.

Results

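Expression was measured in the anterior heart field (AHF) after conditional loss of β-catenin on 8 of the 24 arrays of the series, chosen by their titles: 4 arrays of *β-cat LOF* embryos and the 4 arrays of their own controls. *β-cat LOF* embryos carried *Mef2c-AHF-Cre/+;β-catenin f/f*. The genotype of the controls is uncertain: the methods give *β-catenin f/+* lacking Cre, and the labels give wild type embryos and Cre-carrying heterozygotes of the same litters. All embryos were at E9.5 with 19 to 21 somite pairs, on a mixed background, and the tissue was the microdissected AHF of the pharyngeal arches without the heart tube, with several embryos pooled per array. *Mef2c-AHF-Cre* drives recombination in the AHF lineage, while the dissected piece also holds cells of other lineages, which keep β-catenin. The other 16 arrays were of *Tbx1 LOF* embryos, of rescue embryos (the *Tbx1* conditional mutant with 1 *β-catenin* flox allele added) and of the controls of each, and they enter only where stated. Nothing in the labels says which arrays share a litter, so p-values measure the spread between these arrays.

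β-catenin is the transcriptional arm of canonical Wnt signaling: when a Wnt ligand binds, it escapes the destruction complex, enters the nucleus and activates target genes with TCF/LEF factors, and at the membrane it links cadherins to actin. AHF cells are progenitors that are added to the outflow tract and right ventricle, where they become cardiac muscle, smooth muscle and endothelium. Values are log2 intensities, differences are log2 fold changes (mutant minus control) from limma on the 8 arrays, and a result is called at an adjusted p under 0.05, or, as a weaker rule, at the study's threshold of an unadjusted p under 0.05 with a fold change over 1.5.

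Control replicate 2 was rich in heart muscle genes. Relative to the 8 arrays, the mean of 38 cardiac sarcomere genes was 1.32 in it, against −0.19 to 0.27 in the other 3 controls and −0.47 to −0.13 in the mutants. It was also the highest control for the liver and gut list (0.47) and for mesothelium and proepicardium (0.40). The main results are therefore given with and without it. Among the other controls, replicate 1 had the highest sarcomere mean, 0.27. Its mean of heart chamber genes was 0.37, against 0.05 and −0.24 in controls 3 and 4. The fit without control 2 keeps control 1. Mutant replicate 4 had the lowest array weight in limma, 0.26, against 0.65 for control 2 and 0.95 to 1.80 for the others. *Ctnnb1*, the gene of β-catenin, read 13.27, 13.24, 13.11 and 13.09 in the *β-cat LOF* arrays and 13.19, 13.23, 13.19 and 13.21 in the controls (difference −0.03, SE 0.06; two-sided exact permutation test, p = 0.514). Since the position of its probe set relative to the deleted exons is unknown, the labels could not be checked with it. *Tbx1* read 11.66, 11.94, 11.83 and 11.81 in the *β-cat LOF* arrays and 11.75, 11.51, 11.82 and 11.87 in the controls, with a difference of 0.07 (SE 0.09).

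Across all 19938 genes, no gene passed an adjusted p of 0.05 in limma (lowest adjusted p = 0.47, and 0.669 without control 2). At an unadjusted p under 0.05 there were 521 higher genes (2.61%) and 328 lower genes (1.65%), 849 in all where 996.9 would be expected by chance. Without control 2 these were 354 (1.78%) and 241 (1.21%), of which 277 and 182 were among those of the 8 arrays. The counts depended on the model: with arrays 1 and 2 against 3 and 4 as a covariate, 793 genes were higher and 590 lower. With the replicate number as a block, 1058 were higher and 746 lower. In the fit of the 8 arrays without these terms, the study's threshold gave 5 higher genes (0.0251%) and 61 lower genes (0.306%). Without control 2 it gave 5 higher and 23 lower (0.115%), of which 4 and 22 were among those of the 8 arrays. Control 2 was the highest control for 59 of the 61 lower genes. Other single arrays moved this count as well: it was 27 without mutant replicate 4, 38 without mutant replicate 2 (where 11 genes were higher) and 142 without control 4. All 4 mutant arrays lay above all 4 controls for 410 genes (2.06%) and below them for 157 (0.787%).

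The higher and the lower genes differed in intensity. The 521 higher genes had a median log2 intensity of 7.51, below the 8.59 of all genes, and a median difference of 0.19. The 328 lower genes had a median intensity of 9.09 and a median difference of −0.29. Of the higher genes, 335 lay among the 40% of genes with the lowest intensity and 44 among the 40% with the highest. Of the lower genes, 67 and 145 did so. Of 1027 olfactory receptor genes, 34 (3.31%) were higher and 0 lower at an unadjusted p under 0.05, against 2.61% higher over all genes, and 23 were higher and 1 lower without control 2, where 1.78% of all genes were higher. They had a median difference of 0.06 against 0.015 over all genes. Olfactory receptors are best known from sensory neurons of the nose. Relative to the 8 arrays, their mean was 0.18 in mutant replicate 4, −0.04, −0.03 and 0.01 in the other mutant arrays and −0.07 to 0.00 in the controls, so that the other mutant arrays lay within or just above the control range. Of 167 vomeronasal receptor genes, 1 was higher and 0 lower. Of 77 mitochondrial ribosomal protein genes and of 67 genes with symbols starting *Rps* or *Rpl*, none was called in either direction. Without control 2, 1 of these 67 was higher.

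**Figure D1:**
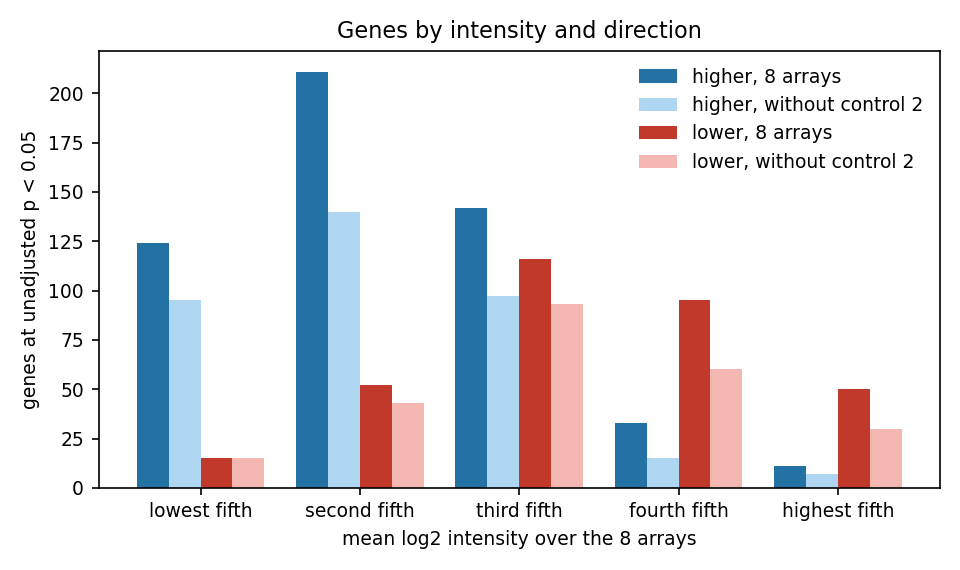
Number of genes at an unadjusted p under 0.05 (vertical axis) in 5 groups of genes by mean log2 intensity over the 8 arrays (horizontal axis), higher (blue) or lower (red) in *β-cat LOF*, with all 8 arrays (dark) and without control 2 (light). Higher genes are most numerous in a low group, at 211, and lower genes in the middle group, at 116.

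Among genes at an unadjusted p under 0.05 with all mutant arrays above all controls (247 genes, 1.24%), the 15 with the largest fold change were *Gm32061*, *Nkx2-9*, *Rfx4*, *Olig2*, *Pou3f2*, *Pax6*, *Glra1*, *Ina*, *Dtx4*, *Prdm8*, *Neurod4*, *Sema5b*, *Nutm1*, *Srgap3* and *Fam181a*. Their differences ran from 0.32 to 0.93, and from 0.27 to 0.84 without control 2. Control 2 was the lowest control for 6 of the 15 and for 98 of the 247, and control 3 for 72 of the 247. All 15 met the same rule without control 2, as did 1.27% of all genes; leaving out an array cannot end a separation of the groups. They stayed at an unadjusted p under 0.05 whichever single array was left out.

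*Olig2*, a bHLH factor of motor neuron progenitors, read 7.99, 7.47, 7.67 and 8.03 in the *β-cat LOF* arrays and 7.11, 7.08, 7.04 and 7.15 in the controls. The lowest mutant array lay above the highest control, and the controls differed among themselves by little. The difference was 0.69 (SE 0.11), or 0.69 (SE 0.13) without control 2 (limma, adjusted p = 0.584). Within arrays numbered 1 and 2 the difference was 0.64, and within 3 and 4 it was 0.75. *Pax6*, a paired-box factor of the ventricular zone, read 8.41, 8.22, 8.28 and 8.25 in the *β-cat LOF* arrays and 7.73, 7.60, 7.94 and 7.92 in the controls, a difference of 0.49 (SE 0.08). *Glra1*, a subunit of the inhibitory glycine receptor, had the lowest adjusted p of all genes and read 7.15, 7.06, 7.03 and 7.05 in the *β-cat LOF* arrays and 6.52, 6.57, 6.70 and 6.69 in the controls. Its mutant arrays were close together and its difference was 0.45 (SE 0.06).

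*Nkx2-9*, a homeobox factor of the ventral neural tube, read 8.93, 8.89, 9.21 and 9.88 in the *β-cat LOF* arrays and 8.38, 8.42, 7.94 and 8.87 in the controls. The groups touched: the highest control, replicate 4, lay just under the lowest mutant array. The difference was 0.83 (SE 0.23), and 0.83 (SE 0.26) without control 2. *Rfx4*, a winged-helix factor of the neural tube, read 8.47, 7.90, 7.86 and 8.40 in the *β-cat LOF* arrays and 7.35, 7.54, 7.27 and 7.65 in the controls, a difference of 0.70 (SE 0.15). *Gm32061*, a noncoding RNA gene, read 8.31, 7.32, 7.40 and 7.77 in the *β-cat LOF* arrays and 6.62, 6.51, 6.88 and 7.09 in the controls, a difference of 0.93 (SE 0.20). In both genes mutant replicate 1 was the highest array. *Pou3f2*, a POU factor of neural progenitors, differed by 0.57 (SE 0.12), and *Ina*, the neurofilament protein α-internexin, by 0.43 (SE 0.12). The proneural factor gene *Neurod4* differed by 0.36 (SE 0.10), and *Srgap3*, a GTPase-activating protein of Slit and Robo signaling, by 0.35 (SE 0.07).

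Of 24 measured neural tube genes, 13 were higher at an unadjusted p under 0.05, where 2.61% of all genes were higher, 0 were lower and 11 did not pass, with a median difference of 0.17 against 0.015 over all genes. Without control 2, 9 were higher, against 1.78% of all genes, and 0 lower, with a median of 0.15. Among those that passed were the transcription factor genes *Sox1* (0.14), *Sox2* (0.28), *Sox3* (0.18), *Nkx2-2* (0.26), *Nkx6-1* (0.24), *Nkx6-2* (0.23) and *Zic2* (0.34), beside *Olig2* and *Pax6*. *Fabp7*, a fatty acid binding protein of radial glia, had 0.65 (SE 0.23) and its groups overlapped. Of the members that did not pass, the difference was 0.03 for β3-tubulin (*Tubb3*), −0.01 for doublecortin (*Dcx*) and −0.07 for the progenitor filament nestin (*Nes*). Relative to the 8 arrays, the list mean ran from 0.04 to 0.17 in the mutant arrays and −0.19 to −0.07 in the controls, so the groups did not overlap. Control 2 was the lowest control, and the others lay between −0.08 and −0.07. Whether the amount of neural tissue in the dissected pieces had a part in this was not tested.

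Of 18 measured Notch pathway genes, 5 were higher and 0 lower at an unadjusted p under 0.05, with and without control 2, where 2.61% and 1.78% of all genes were higher. The other 13 did not pass, and 6 of the 18 differences were below 0. *Dll1*, a Notch ligand, read 8.69, 8.64, 8.45 and 8.44 in the *β-cat LOF* arrays and 8.37, 8.40, 8.13 and 8.21 in the controls, a difference of 0.28 (SE 0.09) with no overlap. *Lfng*, which glycosylates Notch receptors, read 9.76, 9.76, 9.92 and 9.83 in the *β-cat LOF* arrays and 9.41, 9.25, 9.70 and 9.67 in the controls, a difference of 0.31 (SE 0.10). *Nrarp*, a Notch feedback inhibitor, had 0.20 (SE 0.07), the ligand gene *Dll3* 0.30 (SE 0.10) and the target *Hes5*, which the neural list also holds, 0.34 (SE 0.11). The receptors *Notch1* and *Notch2* had 0.07 and 0.03. The median of the list was 0.06.

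Of 25 FGF signaling genes, 4 were higher (2 without control 2) and 0 lower in either fit, against the same 2.61% and 1.78% of all genes, among them the ligands *Fgf4* (0.31, SE 0.10) and *Fgf3* (0.23, SE 0.09) and the receptor *Fgfr3* (0.22, SE 0.09). Of 14 surface ectoderm genes, 4 were higher, and 2 without control 2, and 0 were lower in either fit. Those higher included *Grhl2* (0.21, SE 0.08) and *Ovol1* (0.20, SE 0.07), which encode epithelial transcription factors. *Sox10*, a neural crest factor, was higher by 0.25 (SE 0.09), and its 4 mutant arrays all lay above the controls. It was 1 of 20 neural crest and arch mesenchyme genes of which 1 was higher and 1 lower.

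Of 291 microRNA loci, 12 (4.12%) were higher and 3 lower, against 2.61% and 1.65% of all genes, and 4 were higher and 5 lower without control 2. The loci of miR-219a, a microRNA of the oligodendrocyte lineage, were singled out after their values were seen. *Mir219a-2* read 7.98, 7.83, 7.68 and 7.81 in the *β-cat LOF* arrays and 7.65, 7.54, 7.46 and 7.60 in the controls, a difference of 0.26 (SE 0.07) with no overlap, and *Mir219a-1* had 0.29 (SE 0.10) with overlapping groups. The array reads transcripts of the loci, not the mature microRNA. Both loci give the same mature 5p sequence, shown with its seed (bases 2 to 8) in capitals, from RefSeq on GRCm38.p6 at chr2:29845689-29845709 and chr17:34025052-34025072, both on the minus strand.
miR-219a-5p: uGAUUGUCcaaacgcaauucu

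**Figure D2:**
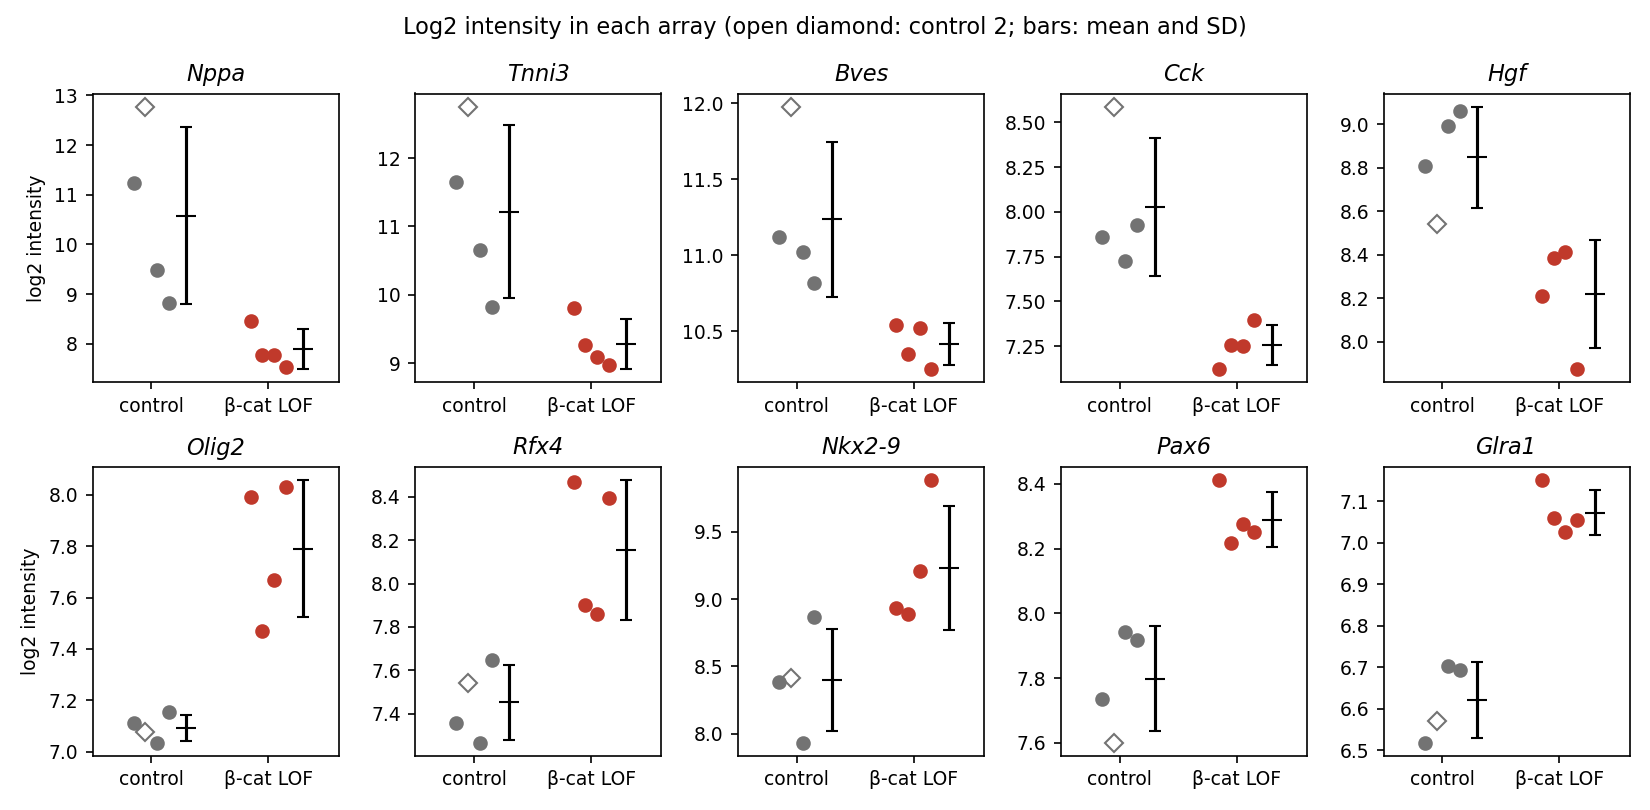
Log2 intensity (vertical axis) of 10 named genes in the 4 control and 4 *β-cat LOF* arrays, one point per array, with group mean and SD; the open diamond is control 2. Control 2 is the highest control for *Nppa*, *Tnni3*, *Bves* and *Cck*, and lies within or near the other controls for *Olig2*, *Nkx2-9* and *Glra1*.

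Among genes at an unadjusted p under 0.05 with all mutant arrays below all controls (112 genes, 0.562%), the 15 with the largest fold change were *Nppa*, *Tnni3*, *Smpx*, *Nppb*, *Myl3*, *Apobec2*, *Lrrc10*, *Hspb7*, *Mlip*, *Trim55*, *Acta1*, *Crip1*, *Cryab*, *Bves* and *Cck*. Control 2 was the highest control for all 15, and for 68 of the 112. The 15 differences ran from 0.77 to 2.68 in size, and from 0.46 to 1.95 without control 2, a median of 59.6% of the change with it. All 15 met the same rule without control 2, as did 0.617% of all genes. Without mutant replicate 4, 11 of the 15 were at an unadjusted p under 0.05; *Hspb7*, *Mlip*, *Trim55* and *Acta1* were not.

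*Nppa*, a natriuretic peptide of the chambers, read 8.47, 7.78, 7.78 and 7.54 in the *β-cat LOF* arrays and 11.23, 12.77, 9.48 and 8.83 in the controls. All mutant arrays lay below all controls, with the controls spread over a wider range than the gap between the groups. The difference was −2.68 (SE 0.69), and −1.95 (SE 0.46) without control 2. Within arrays numbered 1 and 2 it was −3.87, and within 3 and 4 it was −1.49. *Tnni3*, cardiac troponin I, read 9.80, 9.26, 9.09 and 8.97 in the *β-cat LOF* arrays and 11.65, 12.75, 10.65 and 9.82 in the controls, a difference of −1.94 (SE 0.50), or −1.42 (SE 0.35) without control 2. Control replicate 4 came close to the highest mutant array in both genes.

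Some lower genes lay outside the sarcomere. *Cck*, the peptide cholecystokinin, read 7.12, 7.26, 7.25 and 7.40 in the *β-cat LOF* arrays and 7.86, 8.59, 7.73 and 7.93 in the controls, a difference of −0.77 (SE 0.16), and −0.58 (SE 0.08) without control 2, where its limma p was 3.35e-05. *Bves*, a cAMP-binding membrane protein of muscle, read 10.54, 10.35, 10.52 and 10.25 in the *β-cat LOF* arrays and 11.12, 11.98, 11.02 and 10.82 in the controls, a difference of −0.82 (SE 0.21). The LIM protein gene *Crip1* differed by −0.85 (SE 0.23) and *Apobec2*, an APOBEC-family gene of muscle, by −1.15 (SE 0.37).

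The medians of the muscle lists were closer to 0 without control 2. Of 38 sarcomere genes, 17 were lower and 0 higher at an unadjusted p under 0.05, where 1.65% of all genes were lower, and 18 were lower without control 2, where 1.21% were, while the median went from −0.58 to −0.26. Of 18 muscle energy genes, 7 were lower, and 4 without control 2, with medians of −0.39 and −0.21. Of 24 cardiac transcription factors, 5 were lower with control 2 and none without it, where the lowest p among those 5 was 0.0527. *Tbx5* had −0.81 (SE 0.30) and −0.66 (SE 0.31) without control 2.

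Some lower genes did not have control 2 as their highest control. *Hgf*, *Ulk4*, *Kcnj2* and *Bcl11a* were chosen after their values were seen. *Hgf*, a growth factor secreted by mesenchyme, read 8.21, 8.38, 8.41 and 7.87 in the *β-cat LOF* arrays and 8.81, 8.54, 8.99 and 9.06 in the controls. Control 2 was its lowest control, and the difference was −0.63 (SE 0.14), or −0.73 (SE 0.13) without control 2. *Ulk4*, a pseudokinase gene, read 8.12, 8.23, 8.18 and 8.27 in the *β-cat LOF* arrays and 8.29, 8.51, 9.07 and 9.01 in the controls, a difference of −0.52 (SE 0.15). The potassium channel gene *Kcnj2* differed by −0.45 (SE 0.09) and the zinc-finger factor gene *Bcl11a* by −0.47 (SE 0.11). The matrix protein gene *Postn*, periostin, differed by −0.999 (SE 0.26), or −0.95 (SE 0.29) without control 2, and *Dcn*, decorin, by −0.48 (SE 0.16) and −0.50 (SE 0.18). *Postn* overlapped between the groups, since control replicate 4 read 9.54.

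**Figure D3:**
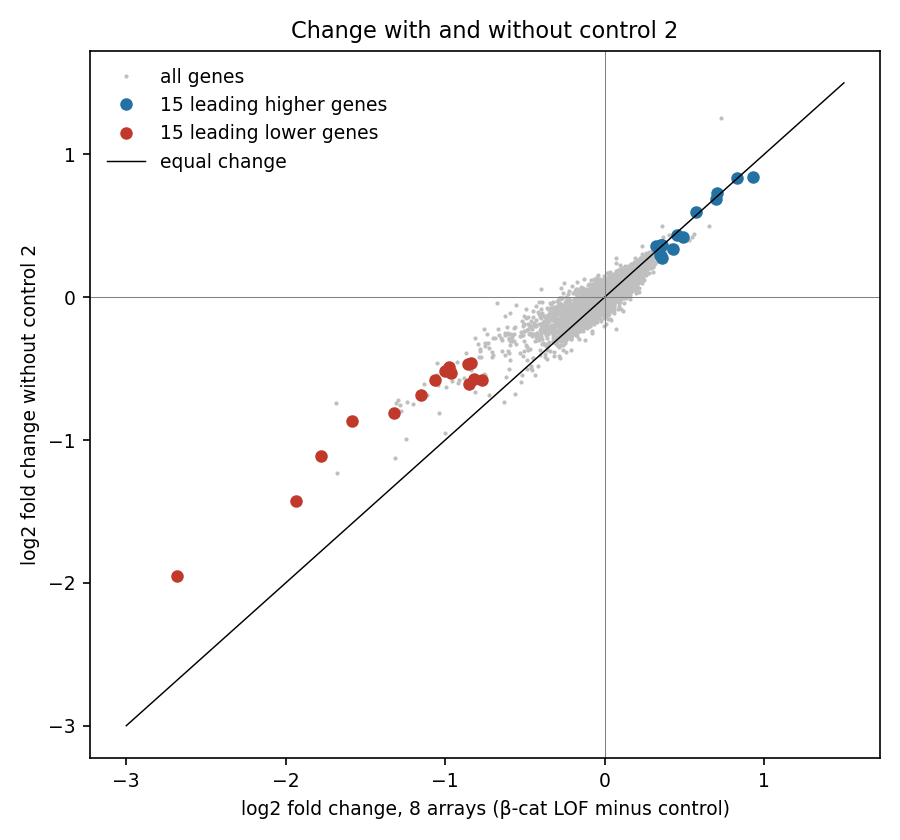
Log2 fold change of each of 19938 genes with all 8 arrays (horizontal axis) and without control 2 (vertical axis). Points on the line changed equally; the 15 leading lower genes (red) lie above it, closer to 0 without control 2, and the 15 leading higher genes (blue) lie near it.

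Of 50 measured endothelial and endocardial genes, 10 were lower and 0 higher at an unadjusted p under 0.05, where 1.65% of all genes were lower, and 40 did not pass. Without control 2, 4 were lower, against 1.21% of all genes. In 45 of the 50 the difference was below 0, against 8494 of all 19938 genes. The median was −0.11, or −0.08 without control 2, against 0.015 and 0.009 over all genes. *Tek*, the angiopoietin receptor, read 10.28, 10.07, 10.06 and 9.86 in the *β-cat LOF* arrays and 10.42, 10.74, 10.44 and 10.14 in the controls, a difference of −0.37 (SE 0.12), and −0.27 (SE 0.11) without control 2. *Pecam1*, an endothelial adhesion molecule, had −0.24 (SE 0.10), and −0.14 (SE 0.08) without control 2. *Icam2* (−0.18, SE 0.06) and *Ecscr* (−0.17, SE 0.07) were separated between the groups in all 8 arrays. The largest difference in the list was for *Gpr182*, a receptor of endothelium, which read 8.24, 8.25, 8.27 and 7.97 in the *β-cat LOF* arrays and 8.71, 9.73, 8.49 and 8.21 in the controls and had −0.60 (SE 0.26), and −0.28 (SE 0.12) without control 2.

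The list mean of endothelial genes ran from −0.11 to −0.03 in the mutant arrays and −0.04 to 0.17 in the controls, with control 2 the highest and control 4, at −0.04, within the mutant range. The sarcomere mean was also highest in control 2 and lowest in control 4 among the controls, at −0.19. Its part in the endothelial result was not tested. In bulk tissue, fewer cells of a type and less RNA per cell cannot be told apart. Of 13 erythroid genes and 17 macrophage and platelet genes, 0 passed in either direction, against 2.61% of all genes higher and 1.65% lower. At those shares, lists of this size would hold few calls or none. The erythroid mean ran from −0.39 to 0.215 in the mutant arrays and −0.13 to 0.11 in the controls.

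**Figure D4:**
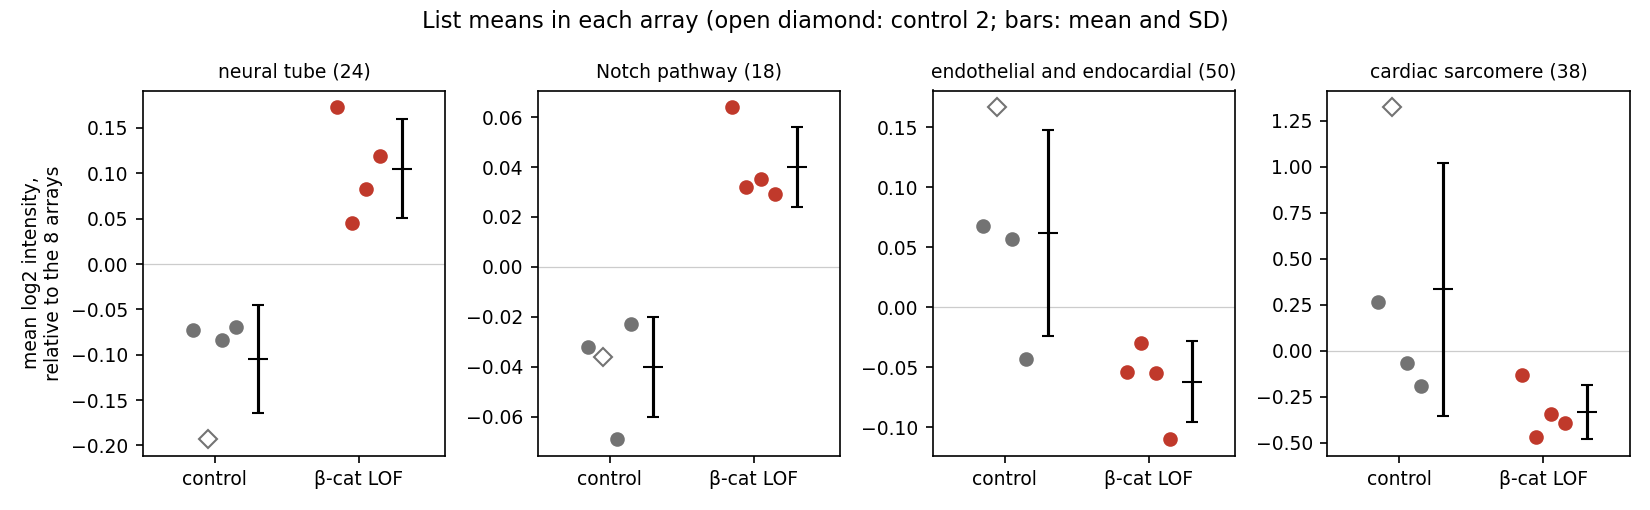
Mean log2 intensity of 4 gene lists relative to the 8 arrays (vertical axis), one point per array, with group mean and SD; the open diamond is control 2 and the number of genes is in brackets. The neural tube and Notch means do not overlap between the groups, while the endothelial and sarcomere means do.

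Of 22 canonical Wnt targets, 1 (*Cdx1*, 0.20, SE 0.09) was higher and 0 were lower at an unadjusted p under 0.05, with a median of 0.02. Without control 2 none of them passed. Over all genes, 2.61% were higher and 1.65% lower, and 1.78% and 1.21% without control 2. *Axin2*, a feedback component of the destruction complex and a standard target, had 0.01 (SE 0.05), *Lef1* −0.02 (SE 0.07), *Ccnd1* −0.02 (SE 0.05) and *Sp5* 0.07 (SE 0.06). The 95% interval of *Axin2* was −0.11 to 0.13 and that of *Lef1* −0.18 to 0.14. Of 50 Wnt ligands, receptors and regulators, 1 was higher (*Wnt8a*, 0.20) and none lower, while without control 2 none was higher and 1 was lower (*Rspo2*, −0.29, and −0.21 with all 8 arrays). The lowest difference of that list was −0.51 (SE 0.25) for the ligand gene *Wnt2*, or −0.41 without control 2, which did not pass in either fit. Of 32 partners of β-catenin and members of the destruction complex, *Apc2* (0.26) and *Cdh1* (0.20) were higher and none was lower. Without control 2, 1 of the 32 was higher and none lower. The 36 cell cycle genes gave no call, with a median of 0.01. The 16 AHF progenitor genes gave no call, with a median of 0.07.

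**Figure D5:**
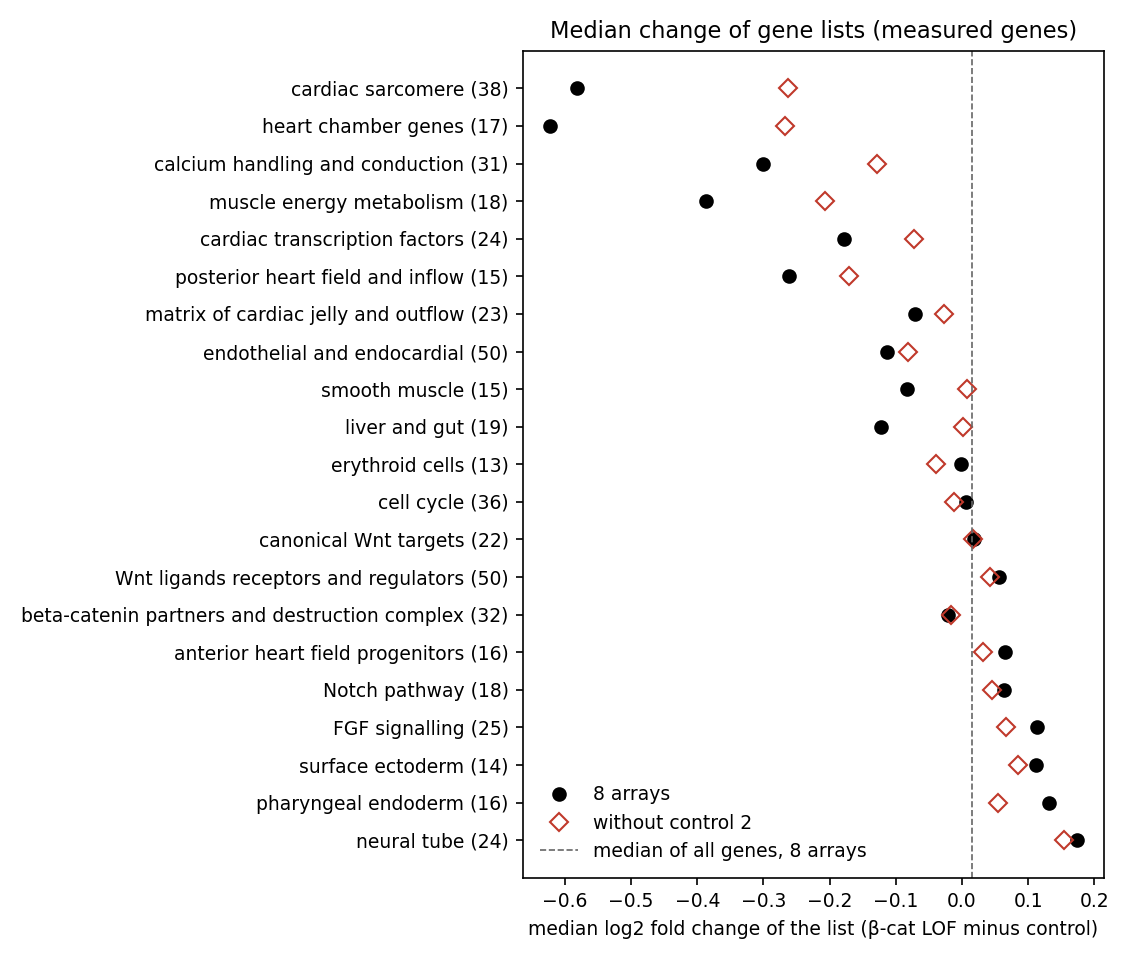
Median log2 fold change (horizontal axis) of 21 gene lists, with the number of measured genes in brackets, with 8 arrays (filled) and without control 2 (open). The dashed line is the median of all genes. The muscle lists move toward 0 without control 2, while the neural tube median is 0.17 and 0.15.

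Motifs were searched on both strands of the 250 bases before each RefSeq start on GRCm38.p6. TCF/LEF factors were given the sequence CTTTGAT. An alternative TCF/LEF form, counted together with it, was CTTTGAA. For SOX factors the sequence searched was AACAATG. The TATA box was searched as TATAAA, and the CArG box by its consensus. A TCF/LEF motif was in 6.56% of 19177 windows, in 7.57% of 317 windows of lower genes and in 9.01% of 466 of higher genes. It was in 2 of 43 windows of sarcomere genes and in 0 of 28 of neural tube genes. The CArG box was in 8 of the 43 sarcomere windows and 4 of the 28 neural windows, against 1.26% of all windows. The SOX motif was in 3 of the 43 sarcomere windows and 4 of the 28 neural windows, against 2.45% of all windows. The TATA box was in 4 of the 43 and 5 of the 28, against 10.5%. The promoters of the leading lower and of a leading higher gene are shown for comparison, with any of these motifs in capitals. The same windows of *Tnni3* and *Nkx2-9*, also among the leading genes, held none of these motifs and are not shown. That of *Nppa* (chr4:148000472-148000721, plus strand) holds the alternative TCF/LEF form and a TATA box, and that of *Olig2* (chr16:91225300-91225549, plus strand) holds the reverse complement of the SOX motif and a TATA box.
Nppa: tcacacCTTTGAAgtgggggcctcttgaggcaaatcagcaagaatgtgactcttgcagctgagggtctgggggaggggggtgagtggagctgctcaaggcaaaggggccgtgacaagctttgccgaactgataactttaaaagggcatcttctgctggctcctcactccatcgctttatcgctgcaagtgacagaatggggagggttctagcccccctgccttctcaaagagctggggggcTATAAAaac
Olig2: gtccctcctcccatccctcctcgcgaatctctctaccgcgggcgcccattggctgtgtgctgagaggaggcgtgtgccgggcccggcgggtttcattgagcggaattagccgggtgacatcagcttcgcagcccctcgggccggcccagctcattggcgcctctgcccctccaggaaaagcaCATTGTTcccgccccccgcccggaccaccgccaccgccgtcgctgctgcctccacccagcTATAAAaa

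The change in *β-cat LOF* was compared with that in rescue embryos, each against its own controls, in 1 limma fit of all 24 arrays. No gene differed at an adjusted p under 0.05 (lowest adjusted p = 0.658). At an unadjusted p under 0.05, 602 (3.02%) were higher in *β-cat LOF* relative to rescue and 364 (1.83%) lower. For *Nppa* the change was −2.68 in *β-cat LOF* and 1.06 in rescue, a difference of −3.74 (SE 0.84). *Nkx2-9* had 0.83 and 0.77, a difference of 0.06 (95% interval −1.05 to 1.16). *Olig2* had 0.69 and 0.33, a difference of 0.37 (95% interval −0.40 to 1.14). The median of the neural tube list was 0.17 in *β-cat LOF*, 0.14 in rescue and −0.16 in *Tbx1 LOF*. In rescue, 1 of its 24 genes was higher and 0 lower at an unadjusted p under 0.05. Over all 19938 genes, 74 were higher and 179 lower in rescue.

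Against the change in *Tbx1 LOF*, a comparison added after values were seen, 10 genes differed at an adjusted p under 0.05 in the same fit (0.0502% of 19938). For *Tecrl*, *Crip1*, *Bves*, *Myl4*, *Cck* and *Ecm1* the change was below 0 in *β-cat LOF* and above 0 in *Tbx1 LOF*. For *Exoc3l4*, *Prkcb*, *Gfra1* and for *Tbx1*, the gene deleted in *Tbx1 LOF*, the signs were the opposite. For *Bves* the change was −0.82 in *β-cat LOF* and 0.49 in *Tbx1 LOF*, a difference of −1.31 (SE 0.24; limma, adjusted p = 0.0439). For *Cck* it was −0.77 and 0.29. Without control 2, 30 genes passed, and all 10 were among them.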

How the data were processed

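Expression was measured in 24 arrays of mouse AHF, of which 8 are the subject here. The deposited values are log2 intensities that the authors made with RMA in the oligo package (version and genome build: not given in the sources used here), which covers background correction, quantile normalization and summarization. The methods add ComBat and a batch block, which were not repeated, because the labels and methods read here do not assign arrays to batches. The paper reports batch effects, most of all in the *β-cat LOF* and *Tbx1 LOF* data. Its authors also dropped arrays of poor quality, leaving 4 per genotype. Whether the deposited values include ComBat is not stated in the sources used here. The paper added the block because batch removal can overstate confidence, and the p-values here lack it. Of the 35556 probe sets, those naming a single gene (21789) were used and averaged per gene (999 genes had several), giving 19938 genes; 1621 named several genes and 12146 none. Values ran from 3.62 to 14.56, and dim genes were not filtered. The number of arrays limits the precision.

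Differences were tested with limma 3.58.1 in R 4.3.3 (6 residual degrees of freedom in the 8 arrays), with Benjamini-Hochberg adjustment over all genes; standard errors are limma's moderated ones. The test was run on simulated data with known changes and independent noise. Those data held no shift shared by many genes of an array, so they cannot show how the test behaves under one. Single genes were also tested with two-sided exact permutation tests. Gene lists (36) were described by counts and medians, without a test. The members and lists were chosen with earlier results of these data known. Named genes are, each way, the 15 of largest fold change among those at an unadjusted p under 0.05 and without overlap between groups, *Ctnnb1*, *Tbx1* and list members; others are said to be chosen after their values were seen. Alternatives were leaving out each array, the replicate number as a block, arrays 1 and 2 against 3 and 4 as a covariate, all 24 arrays in 1 fit, other normalizations, prior variances, array weights, the brightest probe set and a filter on intensity. Plots used matplotlib 3.10.9 (Python 3.11.15).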

Additional observations from a re-analysis of the deposited data

Results flagged for a closer look

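In groups of 4 arrays, 1 array stood apart from the others in 11 of 194 groups, where the gap to the nearest array over the group's range was above Dixon's critical value; about 1 in 20 would by chance. The ratio was 0.968 for *Zic2* and 0.951 for *Ecscr*, whose lowest mutant array was replicate 2, and 0.892 for both *Gpr182* and *Epha3*, whose lowest was replicate 4. The mean of the cardiac transcription factors was lowest in mutant replicate 4 (0.848), and that of the Notch list highest in mutant replicate 1 (0.848). In the controls, replicate 2 stood apart for *Sema3a* (highest, 0.866), for the neural tube mean (lowest, 0.88), for branchiomeric muscle progenitors (lowest, 0.93) and for immediate early genes (highest, 0.837). Control 4 was highest for *Mir219a-1* (0.925).

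The changes in *β-cat LOF* and *Tbx1 LOF* differed, by a limma test of the difference itself at an adjusted p under 0.05, for 10 genes. The difference was −2.04 for *Tecrl*, −1.495 for *Crip1*, −1.31 for *Bves*, −1.06 for *Myl4*, −1.05 for *Cck* and −0.78 for *Ecm1*. It was 0.45 for *Exoc3l4*, 0.66 for *Prkcb*, 0.71 for *Gfra1* and 0.72 for *Tbx1*, the gene deleted in *Tbx1 LOF*. For *Prkcb*, *Gfra1* and *Tbx1*, most of it lay in *Tbx1 LOF*, where the changes were −0.52, −0.58 and −0.64.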

How the results depend on the processing

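The number of genes at an adjusted p under 0.05 stayed at 0 in the 17 alternatives tried. Leaving out each array in turn gave 282 to 707 higher and 199 to 657 lower genes at an unadjusted p under 0.05, and 4 to 11 higher and 23 to 142 lower at the study's threshold, the lowest of the latter without control 2 and the highest, 142, without control 4 (27 without mutant replicate 4, and 38 without mutant replicate 2, which also gave the most higher genes). At an unadjusted p alone, 199 lower genes were left without mutant replicate 4 and 657 without control 4, and 282 higher genes without control 3. Arrays 1 and 2 against 3 and 4 as a covariate gave 793 higher and 590 lower genes at an unadjusted p, and all 24 arrays in 1 fit gave 575 lower genes. Genes above the median intensity, which are fewer, gave 96 and 198, and 2 and 40 at the study's threshold. Array weights left 20 lower genes at that threshold and a trended, robust prior variance left 22; the cause was not tested. The replicate numbers correlated by 0.089 to 0.479 between groups, with 2 of 4 mutant arrays closest to their own number, so they were not taken to pair the arrays; with the replicate block, which has 3 residual degrees of freedom, 1058 genes were higher and 746 lower. For single named genes, 936 values kept their direction and their side of the threshold, 72 lost it, and *Ctnnb1* turned to 0.009 with array weights and ran from −0.056 to 0.002 when single arrays were left out, highest without mutant replicate 4. The difference from the rescue change gave 0 to 1 genes when single arrays were left out, and that from *Tbx1 LOF* gave 30 without control 2. With 4 arrays per group, small differences in variable genes such as those of muscle could not be told from the spread.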

Other observations

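Gene families by symbol, grouped after their values were seen, gave 6 of 13 *Nkx* genes, 5 of 21 *Sox* genes and 4 of 13 *Pou* genes higher at an unadjusted p under 0.05, and none of them lower, against 2.61% of all genes higher and 1.65% lower, with medians of 0.17, 0.06 and 0.10. Of 52 keratin genes, 4 were higher and none lower. Of 350 *Zfp* genes, 1 was higher and 5 were lower, with a median of −0.03. Of 38 *Hox* genes, 1 was higher and 1 lower, with a median of 0.12. Relative to the 8 arrays, the *Hox* mean was 0.28 in mutant replicate 4. It was −0.02, 0.01 and −0.09 in the other mutant arrays and −0.095 to −0.02 in the controls. The *Nkx* mean was also highest in mutant replicate 4, at 0.24. It was 0.025 to 0.063 in the other mutant arrays and −0.17 to −0.04 in the controls.

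Immediate early genes (21), mesothelium and proepicardium (9), somite and paraxial mesoderm (13) and Hedgehog pathway genes (11) gave no call in either direction. Over all genes, 2.61% were higher and 1.65% lower. All 13 somite genes were above 0, and 12 without control 2, as were 11444 and 10823 of all 19938 genes. The somite median was 0.11, against 0.015 over all genes. The ephrin receptor gene *Epha3*, chosen after its values were seen, differed by −0.38 (SE 0.14), with mutant replicate 4 at 8.37 and the other mutant arrays at 8.99 to 9.07. *Bmp5*, a BMP ligand, differed by −0.49 (SE 0.14), and the guidance ligand *Sema3a* by −0.27 (SE 0.08); both groups were separated in all 8 arrays.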
